A study of Mus musculus with 12 samples.

Results

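The interferon response genes are a set of 37 mouse genes, chosen by name as transcripts that cells switch on when type I interferon or interferon gamma reaches them, and followed here in iWAT, the inguinal depot of subcutaneous white fat. Of the 37 genes, 33 had a transcript cluster of their own among the 22180 genes tested. Ifi47, Oas1a and Gbp2 were represented only by clusters shared with a neighbouring gene and Ifi44 was not analysed here. Interferons bind receptors on the cell surface, Janus kinases then phosphorylate Stat proteins, and Stat2 and Irf9 enter the nucleus as parts of a complex that switches on antiviral genes. Interferon gamma switches on guanylate-binding GTPases, the chemokines Cxcl9 and Cxcl10 and the immunoproteasome. In fat depots these genes can be expressed by macrophages, stromal cells and adipocytes.

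The 12 arrays formed 4 groups of 3 biological replicates. All mice carried floxed Baf60a (Smarcd1) alleles. Control mice (flox) kept the gene, and mice that also carried Adiponectin-Cre (AKO) were made to lose it in adipocytes, so the deletion does not extend by design to the other cells of the depot. Mice of each genotype were kept at 22 °C (RT) or spent 7 days at 10 °C, reached by gradual adaptation (Cold), at an age of 9 months by the labels, on standard chow. The RNA of 1 or 2 mice was pooled on each array, and sex is not in the labels. Signals are RMA log2 values, so a difference of 1 is a doubling, and their median over all clusters was 3.635. An array is named by its group and replicate number, for example flox RT 2. Across all clusters Pearson's r was 0.981 to 0.987 for pairs of arrays within groups and 0.978 to 0.985 for pairs across groups. The white adipocyte markers, among them Adipoq and Plin1, had a mean level between 10.28 and 10.76 on every array. The skeletal muscle markers differed widely between arrays and were highest on AKO RT 2, AKO Cold 2 and AKO Cold 3. Smarcd1 measured 6.42, 6.43 and 6.91 in flox RT and 5.89, 6.26 and 6.30 in AKO RT. It measured 6.27, 6.51 and 6.89 in flox Cold and 6.27, 6.26 and 6.37 in AKO Cold. Its difference was −0.44 at RT (SE 0.18, limma adjusted p = 0.782) and −0.25 in the cold (adjusted p = 0.915), and it was not called in either case. Whether its probes lie in the deleted exons was not checked here, so these values are no test of the deletion. By qPCR on separated iWAT cells, the paper reports efficient Baf60a deletion in the adipocytes and not in the stromal vascular fraction. Fewer expressing cells and less RNA per cell cannot be told apart in whole tissue, for this gene or for any below.

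Promoters are shown for some of the genes whose levels varied most between arrays and for the 3 that varied least. Those of the variable genes were picked because they carry letters to which the interferon-activated factors bind. Each sequence runs 5′ to 3′ from 250 bases before to 50 bases after the RefSeq start in GRCm38.p6. Capitals mark matches to the interferon-stimulated response element (ISRE), searched as GAAA, any 2 bases and GAAA again on either strand, or to the gamma-activated site (GAS), searched as TTC, any 3 bases and GAA, which reads the same on both strands. Positions are those of the leftmost base of a match, counted from the start site. Isg15, Ifit1, Oas3 and Cxcl10 were among the 8 most variable genes. Cxcl9, Irf1 and Psmb8 were the 3 least variable.
Isg15 (chr4:156200769-156201068, minus strand): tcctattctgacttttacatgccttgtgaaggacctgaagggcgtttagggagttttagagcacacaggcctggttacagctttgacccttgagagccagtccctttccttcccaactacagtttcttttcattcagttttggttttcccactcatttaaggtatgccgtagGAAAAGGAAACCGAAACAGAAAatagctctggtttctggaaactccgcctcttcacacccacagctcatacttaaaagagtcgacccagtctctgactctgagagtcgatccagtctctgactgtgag
Ifit1 (chr19:34640639-34640938, plus strand): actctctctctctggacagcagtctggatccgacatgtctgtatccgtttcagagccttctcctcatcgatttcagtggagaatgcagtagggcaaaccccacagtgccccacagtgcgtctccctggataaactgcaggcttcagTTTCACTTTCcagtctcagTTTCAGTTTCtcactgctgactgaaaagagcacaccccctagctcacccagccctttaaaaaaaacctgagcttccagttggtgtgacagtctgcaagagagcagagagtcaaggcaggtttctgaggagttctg
Oas3 (chr5:120777610-120777909, minus strand): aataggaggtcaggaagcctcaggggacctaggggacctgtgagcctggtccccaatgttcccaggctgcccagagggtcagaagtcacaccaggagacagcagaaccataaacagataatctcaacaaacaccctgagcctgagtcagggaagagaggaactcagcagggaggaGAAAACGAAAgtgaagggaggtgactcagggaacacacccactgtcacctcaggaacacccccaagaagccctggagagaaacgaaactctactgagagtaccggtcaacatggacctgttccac
Cxcl10 (chr5:92348840-92349139, minus strand): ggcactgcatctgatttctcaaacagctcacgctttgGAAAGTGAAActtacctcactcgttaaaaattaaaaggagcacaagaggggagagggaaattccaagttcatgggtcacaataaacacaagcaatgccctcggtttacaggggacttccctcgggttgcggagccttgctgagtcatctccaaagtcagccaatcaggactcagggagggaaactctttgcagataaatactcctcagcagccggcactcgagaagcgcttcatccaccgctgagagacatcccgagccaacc
Cxcl9 (chr5:92328030-92328329, minus strand): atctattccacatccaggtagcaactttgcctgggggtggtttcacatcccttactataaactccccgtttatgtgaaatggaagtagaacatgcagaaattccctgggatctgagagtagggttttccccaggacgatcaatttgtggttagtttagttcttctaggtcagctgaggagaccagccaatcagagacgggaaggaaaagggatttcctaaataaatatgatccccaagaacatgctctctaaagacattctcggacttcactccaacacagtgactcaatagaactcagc
Irf1 (chr11:53769764-53770063, plus strand): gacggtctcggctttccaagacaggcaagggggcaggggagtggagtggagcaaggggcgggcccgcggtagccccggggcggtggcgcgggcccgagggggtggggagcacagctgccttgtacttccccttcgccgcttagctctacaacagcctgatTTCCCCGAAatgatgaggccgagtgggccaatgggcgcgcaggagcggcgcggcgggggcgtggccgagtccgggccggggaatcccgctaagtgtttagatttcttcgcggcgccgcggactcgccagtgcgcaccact
Psmb8 (chr17:34197945-34198244, plus strand): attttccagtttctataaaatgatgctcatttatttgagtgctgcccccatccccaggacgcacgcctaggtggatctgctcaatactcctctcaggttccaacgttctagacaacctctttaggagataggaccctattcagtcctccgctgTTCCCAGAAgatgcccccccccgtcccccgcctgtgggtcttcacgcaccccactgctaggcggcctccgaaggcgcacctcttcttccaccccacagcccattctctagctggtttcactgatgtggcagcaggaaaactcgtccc

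The Isg15 window held 3 overlapping ISRE matches, at −78, −72 and −66, which form 1 run of capitals. Ifit1 held matches at −104 and −85, Oas3 held 1 at −75 and Cxcl10 held 1 at −213. Irf1 and Psmb8 held a GAS match at −90 and −97 and no ISRE match, and the Cxcl9 window held neither. A further RefSeq window of Irf1, at chr11:53770223-53770522, also held neither and is not shown. Of the 37 genes, 28 had a window in the RefSeq table, and 13 of these 28 (46.4%) held an ISRE match, against 3.99% of all genes with a window. A GAS match was found in 8 of the 28 (28.6%), against 9.55% of all genes. Oasl1 and Oasl2, which were among the most variable genes, held neither and are not shown. Ifit3, Gbp3, Igtp and Ifih1, which varied less, held an ISRE match. Whether matches go with variability was not tested. A match is a description of the letters, and binding was not measured.

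Across the 12 arrays the interferon response genes moved together, and what set the arrays apart was 2 of the 3 flox RT arrays. The mean of the 33 genes, each centred on its own 12-array mean, was 0.61 on flox RT 1 and 0.97 on flox RT 2 but −0.26 on flox RT 3. It was −0.10, 0.16 and 0.10 in AKO RT. In the cold it was −0.25, −0.28 and −0.14 in flox and −0.18, −0.35 and −0.28 in AKO. Flox RT 3 therefore lay in the range of the cold arrays, below every AKO RT array. Flox RT 2 was the highest of the 12 arrays for 29 of the 33 genes. Flox RT 1 and flox RT 2 were the 2 highest arrays for 25 of the 33 genes, whereas 2.91% of all genes had these as their 2 highest arrays.

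**Figure D1:**
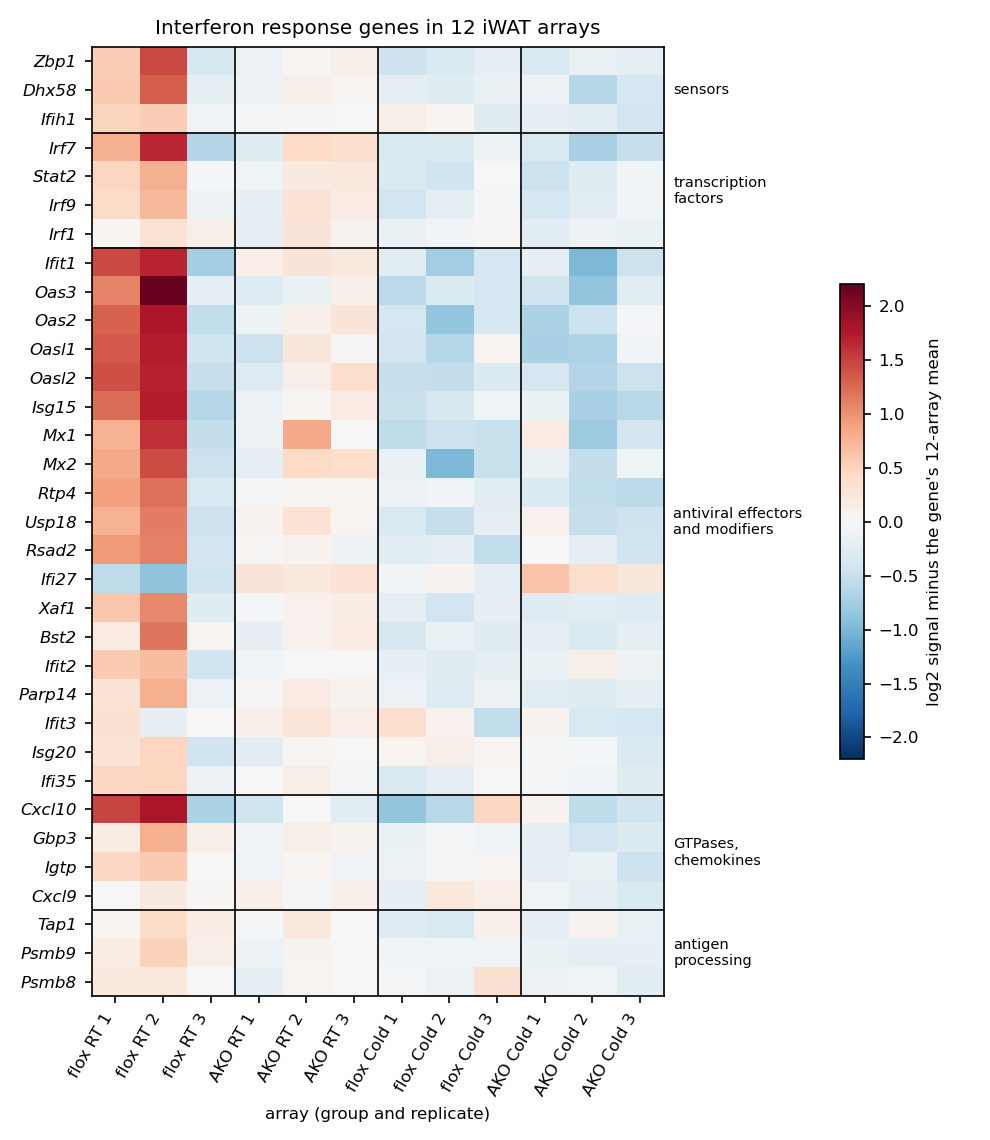
Log2 signal of each of the 33 measured interferon response genes minus the gene's mean over 12 arrays (color), with genes in rows by role and arrays in columns by group. Flox RT 1 and flox RT 2 are the 2 highest arrays for 25 of the 33 genes, and Ifi27 runs the other way.

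The spread between replicates of flox RT was accordingly wide for these genes. The median SD over the 33 genes was 0.621 in flox RT, against 0.168 over all genes. In AKO RT it was 0.137, in flox Cold 0.144 and in AKO Cold 0.162, against 0.148, 0.164 and 0.155 over all genes. The 3 flox RT arrays spanned more than 1 log2 unit for 18 of the 33 genes, against 3.66% of all genes. In flox Cold, Cxcl10 alone spanned that much, and in AKO RT and AKO Cold 0 of the 33 did (2.02% and 2.98% of all genes). The widest flox RT ranges were 2.49 for Cxcl10 (5.61-fold), 2.42 for Ifit1 (5.37-fold), 2.38 for Oas3 (5.21-fold) and 2.35 for Isg15 (5.09-fold).

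Among the sensors of viral RNA and DNA, which start the response, Zbp1 measured 7.94, 8.84 and 7.03 in flox RT and 7.25, 7.43 and 7.52 in AKO RT. Zbp1 binds Z-form nucleic acid. Dhx58, a helicase of the RIG-I family, measured 6.34, 7.10 and 5.55 in flox RT and 5.66, 5.91 and 5.83 in AKO RT. Ifih1, which recognises long double-stranded RNA, measured 9.03, 9.08 and 8.46 in flox RT and 8.51, 8.56 and 8.54 in AKO RT. For all 3 sensors flox RT 1 and 2 lay above the AKO RT arrays and flox RT 3 below them, so the groups overlapped.

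Of the transcription factors, Irf7, which amplifies type I interferon production, varied most. Irf7 measured 9.02, 9.89 and 7.58 in flox RT and 7.97, 8.68 and 8.58 in AKO RT. It measured 7.89, 7.91 and 8.12 in flox Cold and 7.89, 7.52 and 7.72 in AKO Cold. Flox RT thus held both the highest Irf7 value of the 12 arrays and a value below all 3 of flox Cold. Stat2 and Irf9, partners in the complex that binds the ISRE, moved less. Stat2 measured 8.06, 8.37 and 7.55 in flox RT, 7.50, 7.80 and 7.82 in AKO RT, 7.27, 7.16 and 7.61 in flox Cold and 7.11, 7.33 and 7.53 in AKO Cold. Irf9 measured 7.86, 8.14 and 7.32 in flox RT, 7.25, 7.75 and 7.62 in AKO RT, 7.01, 7.21 and 7.41 in flox Cold and 7.04, 7.20 and 7.36 in AKO Cold. For both, flox RT 1 and 2 were the highest of the 12 arrays. Irf1, which responds to interferon gamma as well as to type I interferon, stayed between 6.96 and 7.51 on all 12 arrays. It measured 7.23, 7.51 and 7.32 in flox RT, 6.99, 7.48 and 7.28 in AKO RT, 7.05, 7.14 and 7.22 in flox Cold and 6.96, 7.08 and 7.05 in AKO Cold.

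The antiviral effectors held most of the variable genes. Ifit1, which binds foreign RNA at its capped end, measured 7.43, 7.66 and 5.23 in flox RT, 6.11, 6.26 and 6.19 in AKO RT, 5.73, 5.21 and 5.61 in flox Cold and 5.80, 4.99 and 5.50 in AKO Cold. Isg15, a ubiquitin-like protein that is joined to other proteins, measured 7.15, 7.65 and 5.31 in flox RT, 5.81, 5.98 and 6.10 in AKO RT, 5.43, 5.57 and 5.83 in flox Cold and 5.78, 5.21 and 5.32 in AKO Cold. In both cases flox RT 1 and 2 were the highest arrays and flox RT 3 was within the range of the cold arrays. Oas2 and Oas3 make the oligoadenylates that activate RNase L. Oas3 measured 5.74, 6.83 and 4.44 in flox RT, 4.36, 4.51 and 4.77 in AKO RT, 4.07, 4.35 and 4.28 in flox Cold and 4.21, 3.79 and 4.42 in AKO Cold. Oas2 measured 7.82, 8.29 and 5.97 in flox RT, 6.40, 6.63 and 6.80 in AKO RT, 6.13, 5.66 and 6.12 in flox Cold and 5.81, 6.05 and 6.46 in AKO Cold. Their relatives Oasl1 and Oasl2 lack that enzyme activity or have it in weaker form, and Oasl1 restrains Irf7 production in mice. Oasl1 measured 6.28, 6.65 and 4.49 in flox RT, 4.46, 5.18 and 4.94 in AKO RT, 4.52, 4.30 and 4.99 in flox Cold and 4.22, 4.24 and 4.86 in AKO Cold. Oasl2 measured 8.72, 8.99 and 6.80 in flox RT, 7.02, 7.42 and 7.69 in AKO RT, 6.80, 6.78 and 6.99 in flox Cold and 6.93, 6.67 and 6.83 in AKO Cold. The same 2 arrays led for all 4 genes. Mx1, a dynamin-like GTPase that restricts influenza virus, measured 5.25, 6.09 and 3.96 in flox RT, 4.37, 5.32 and 4.48 in AKO RT, between 3.93 and 4.02 in flox Cold and 4.66, 3.69 and 4.09 in AKO Cold. The other effectors, except Ifit3 and Ifi27, were also highest on flox RT 2. Over the 12 arrays Rsad2 (viperin, which blocks virus budding) ranged from 5.80 to 7.45, Usp18, which removes Isg15 from proteins, from 6.52 to 8.17, and Bst2 (tetherin, which holds virus particles at the cell surface) from 8.83 to 10.37. Rtp4 ranged from 6.84 to 8.63, Xaf1 from 6.05 to 7.53, Mx2 from 3.53 to 5.95 and Ifit2 from 5.48 to 6.59. Parp14 ranged from 8.40 to 9.45, Isg20, an exonuclease, from 6.20 to 7.10, Ifi35 from 6.57 to 7.36 and Ifit3 from 4.36 to 5.26. Mx1, Mx2 and Oas3 lay near the median of all clusters on several arrays, and the values carry no detection call. The Ifit, Oas, Mx and Gbp families have near-identical copies, so signal may be shared between their members.

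**Figure D2:**
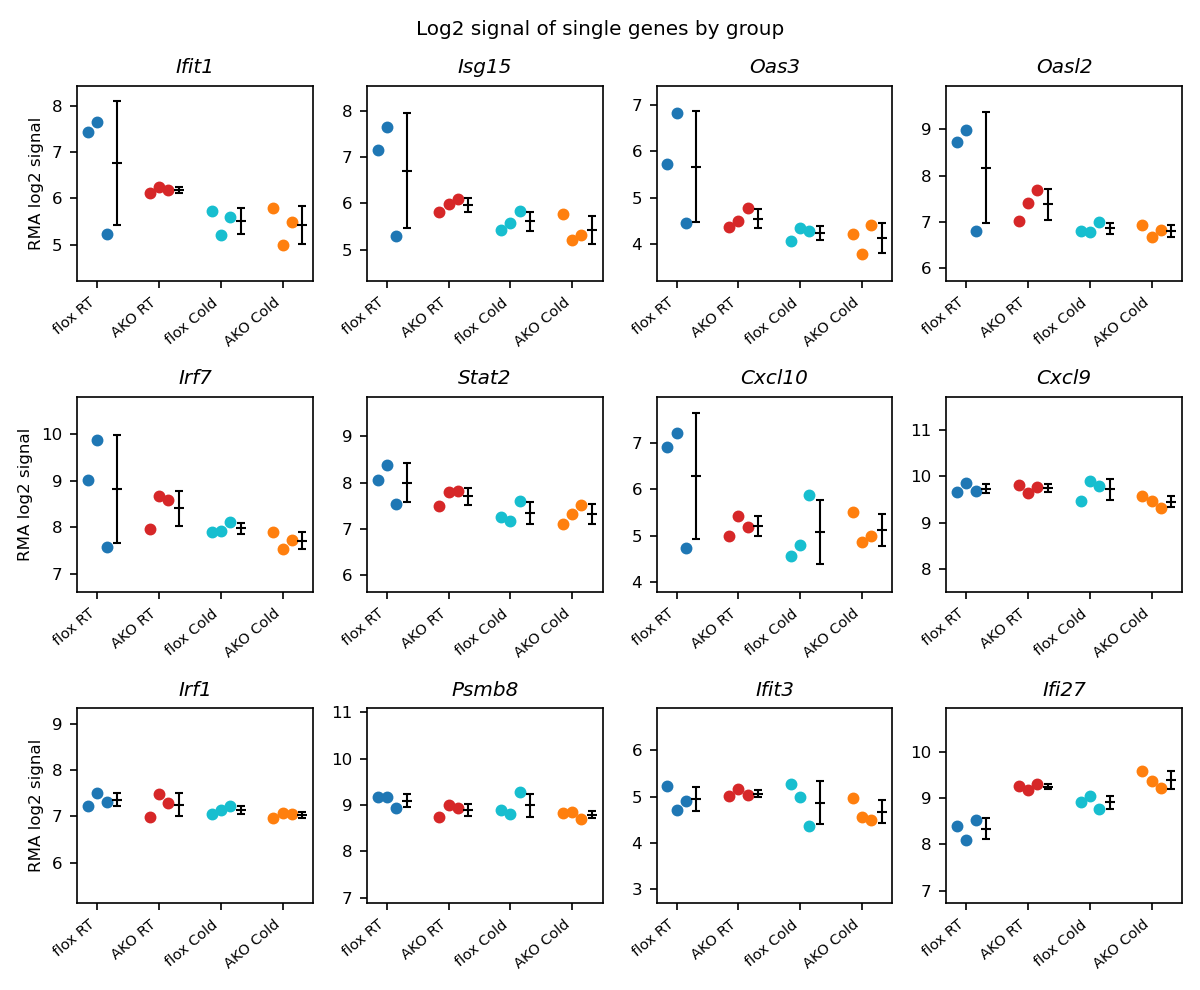
RMA log2 signal of 12 interferon response genes, with 1 point per array in replicate order, and the group mean with its SD (n = 3) beside the points. All panels span the same number of log2 units. Flox RT 1 and 2 lie above the other arrays and flox RT 3 does not for Ifit1, Isg15, Oas3, Oasl2, Irf7 and Cxcl10, whereas Cxcl9 stays between 9.33 and 9.89.

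The chemokines Cxcl9 and Cxcl10, which share the receptor Cxcr3 on activated T cells, did not vary alike. Cxcl10 measured 6.90, 7.22 and 4.73 in flox RT, 4.99, 5.42 and 5.19 in AKO RT, 4.56, 4.80 and 5.87 in flox Cold and 5.50, 4.86 and 4.99 in AKO Cold. Cxcl9 measured 9.67, 9.85 and 9.69 in flox RT, 9.81, 9.64 and 9.77 in AKO RT, 9.46, 9.89 and 9.80 in flox Cold and 9.57, 9.47 and 9.33 in AKO Cold. The flox RT range was 2.49 for Cxcl10 and 0.185 for Cxcl9. Igtp and Gbp3, GTPases that act on vacuoles holding intracellular pathogens, were highest on flox RT 2, at 7.81 and 6.80. The antigen-processing genes also varied little. Psmb8, a subunit of the immunoproteasome, measured 9.16, 9.17 and 8.94 in flox RT, 8.74, 9.00 and 8.94 in AKO RT, 8.89, 8.80 and 9.27 in flox Cold and 8.83, 8.84 and 8.70 in AKO Cold. Tap1, which carries peptides into the endoplasmic reticulum, stayed between 8.66 and 9.40.

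Whether loss of Baf60a in adipocytes altered these genes at RT was tested with limma over all 22180 genes. By direction, 30 of the 33 genes were lower in AKO RT than in flox RT (51.7% of all genes), with a median difference of −0.37 against −0.01 over all genes. However, only Ifi27 passed the adjusted threshold (1 of 33, against 0.144% of all genes), and it was higher. At an unadjusted p below 0.05 there were 4 genes, 1 higher and 3 lower, against 3.06% and 3.09% of all genes. The groups did not overlap for Ifi27, which was higher, and for Psmb9, an immunoproteasome subunit, which was lower (5.61% and 5.73% of all genes). The larger differences were −1.12 for Oas3 (SE 0.43, adjusted p = 0.735), −1.08 for Cxcl10 (SE 0.54, adjusted p = 0.843) and −0.94 for Oasl1 (SE 0.45, adjusted p = 0.827). Each of these rested on flox RT 1 and 2. These arrays lay above all AKO RT arrays for 26 of the 33 genes (11.8% of all genes), while flox RT 3 lay below all AKO RT arrays for 21 (23.8% of all genes).

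Leaving out 1 flox RT array changed the size of the median difference but not its direction. Without flox RT 1, 2 and 3 in turn, 31, 26 and 31 of the 33 genes were lower in AKO RT. Without flox RT 3, 9 of the 33 genes passed, against 0.234% of all genes. Ifi27 was higher, Ifit1, Isg15, Oas2, Oas3, Oasl1, Oasl2, Rsad2 and Rtp4 were lower, and the median was −0.65. The flox RT group of that fit is only the high arrays flox RT 1 and 2. Their distance from flox RT 3 is thereby also left out of the pooled spread. Without flox RT 2, 0 passed in limma, with 1 at an unadjusted p below 0.05 (5.08% of all genes), and the median was −0.09. Without flox RT 1, 0 passed, with 4 at an unadjusted p below 0.05 (7.01% of all genes), and the median was −0.30. Without flox RT 1 and 2 together, arrays that earlier results of these data had shown to be high, 26 of the 33 genes were higher in AKO RT and the median was 0.34. None passed the adjusted threshold then, and 11 genes, all higher, had an unadjusted p below 0.05 (2.39% of all genes). That fit compares AKO RT with the single array flox RT 3, which is assumed to vary like the other groups.

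**Figure D3:**
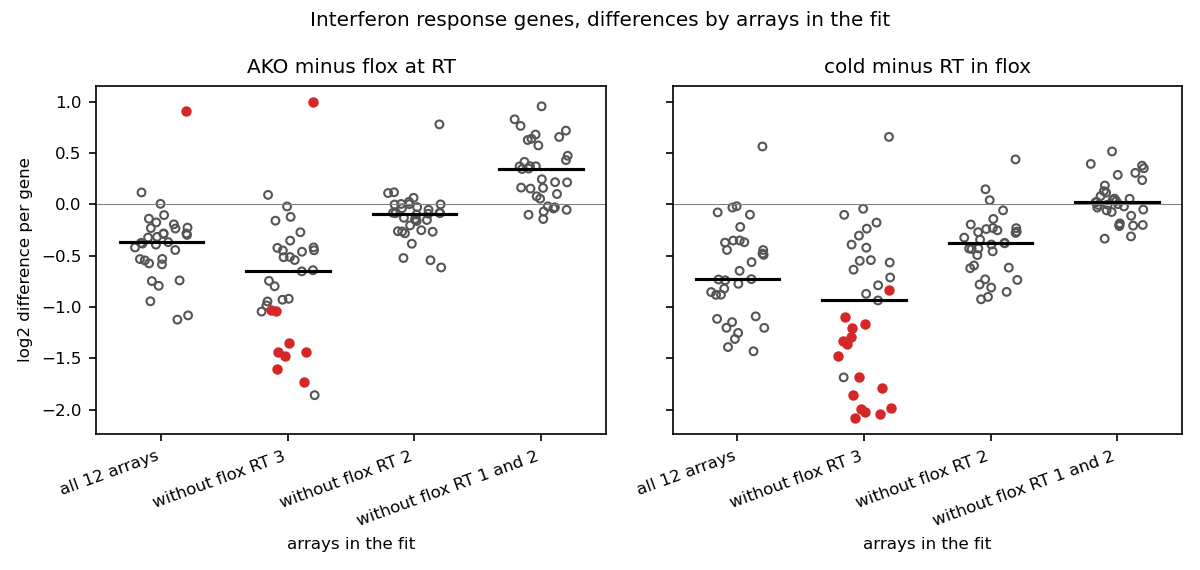
Log2 differences of the 33 interferon response genes (points) between AKO and flox at RT (left) and between cold and RT in flox (right), with all 12 arrays and with flox RT arrays left out. Bars are medians and red points passed the limma adjusted threshold of 0.05. The median of AKO minus flox at RT moves from −0.65 without flox RT 3 to 0.34 without flox RT 1 and 2.

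Ifi27, a small hydrophobic protein named for its induction by interferon alpha, ran against the other genes. Ifi27 measured 8.41, 8.09 and 8.53 in flox RT, 9.26, 9.18 and 9.30 in AKO RT, 8.91, 9.04 and 8.76 in flox Cold and 9.59, 9.36 and 9.22 in AKO Cold. All 6 AKO arrays lay above all 6 flox arrays, which held for 0.329% of all genes in this direction and for no other of the 33 genes. At RT the difference was 0.90 (SE 0.14, 1.87-fold, adjusted p = 0.0335). In the cold it was 0.49 (SE 0.14, 1.40-fold, adjusted p = 0.357), and the difference between the temperatures was −0.42 (adjusted p = 0.978). The difference at RT stayed between 0.779 and 0.998 when each of the 12 arrays was left out in turn. Its call was lost in 7 of these 12 fits, those without AKO RT 1, 2 or 3, flox RT 1 or 2, flox Cold 1 or AKO Cold 2, with adjusted p up to 0.166. With the 6 RT arrays alone the adjusted p was 0.165. For 1 gene in groups of 3 the smallest two-sided p of an exact permutation test is 0.1.

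In the cold the interferon response genes differed little between genotypes. Of the 33 genes, 13 were higher and 20 lower in AKO Cold (49.4% of all genes were lower), with a median of −0.07 against 0.00 over all genes. None passed in limma (0 of 33, against 0.212% of all genes), 1 gene, Ifi27, had an unadjusted p below 0.05 (6.28% of all genes), and the methods' t-test called 0 after adjustment and 3 before it (5.83% of all genes). The groups did not overlap for 2 genes that were higher, Ifit2 and Ifi27, and for 6 that were lower, Isg20, Irf7, Rtp4, Gbp3, Psmb9 and Igtp (5.7% and 5.55% of all genes). Irf7 differed by −0.26 (SE 0.43, adjusted p = 0.991) and Cxcl9 by −0.26 (SE 0.13, adjusted p = 0.806). These SEs were pooled over all 4 groups, flox RT included. For Irf7 the SD was 0.12 in flox Cold and 0.18 in AKO Cold, against 1.17 in flox RT. For Cxcl9 it was 0.23 and 0.12, against 0.10 in flox RT.

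Cold against RT was compared within each genotype. In flox, 32 of the 33 genes were lower in the cold (51.7% of all genes), with a median of −0.73 against −0.01 over all genes. None passed the adjusted threshold in limma, which called 0.00902% of all genes. At an unadjusted p below 0.05, 24 genes were lower and 1, Ifi27, was higher, against 4.45% and 4.98% of all genes. The methods' t-test gave 2 genes before adjustment (6.86% of all genes) and 0 after it. Oas3 differed by −1.43 (SE 0.43, 2.70-fold, adjusted p = 0.302), Oas2 by −1.39 (SE 0.45, adjusted p = 0.336) and Oasl2 by −1.31 (SE 0.43, adjusted p = 0.340). Flox RT and flox Cold did not overlap for 5 genes that were lower, Irf1, Oas3, Bst2, Gbp3 and Psmb9, and for Ifi27, which was higher by 0.56 (adjusted p = 0.220). Of all genes, 5.86% did not overlap in the lower and 7.02% in the higher direction.

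This comparison also depended on the flox RT arrays in the fit. Without flox RT 3, 16 of the 33 genes passed, all lower in the cold, against 0.32% of all genes in that direction. They were Cxcl10, Dhx58, Ifit1, Ifit2, Irf7, Isg15, Mx2, Oas2, Oas3, Oasl1, Oasl2, Rsad2, Rtp4, Usp18, Xaf1 and Zbp1, and the median of the 33 genes was −0.94. These calls rest on the high arrays flox RT 1 and 2, with their distance from flox RT 3 left out of the pooled spread. The median was −0.61 without flox RT 1 and 0 passed in limma, with 14 lower and 1 higher at an unadjusted p below 0.05 (9.18% of all genes in either direction). Without flox RT 2 the median was −0.38 and 0 passed in limma, with 6 at an unadjusted p below 0.05 (7.74% of all genes). Without flox RT 1 and 2 together, 18 genes were higher and 15 lower in the cold, with a median of 0.02. That fit rests on the single array flox RT 3, left after the high arrays were taken out.

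In AKO, whose RT replicates lay closer together, 32 of the 33 genes were also lower in the cold (49.4% of all genes), with a median of −0.34 against 0.00 over all genes. None passed in limma, which called 0.464% of all genes. At an unadjusted p below 0.05 there were 2, both lower (4.43% of all genes). The methods' t-test gave 9 before adjustment (10% of all genes) and 0 after it. With the 6 AKO arrays alone limma gave 16 before adjustment (10.7% of all genes) and 0 after it. AKO RT and AKO Cold did not overlap for 17 of the 33 genes, all lower in the cold, against 8.3% of all genes in that direction. These were Ifit1, Ifit3, Ifi35, Ifih1, Isg15, Irf7, Oasl2, Bst2, Rtp4, Cxcl9, Gbp3, Psmb9, Xaf1, Parp14, Dhx58, Zbp1 and Igtp. Ifit1 differed by −0.76 (SE 0.49, adjusted p = 0.683), Irf7 by −0.70 (SE 0.43, adjusted p = 0.662) and Cxcl9 by −0.29 (SE 0.13, adjusted p = 0.484). The SEs of Ifit1 and Irf7 carried the wide flox RT spread, although flox RT is not compared here. For Ifit1 the SD was 0.07 in AKO RT and 0.41 in AKO Cold, against 1.34 in flox RT. The AKO arrays also differed in skeletal muscle markers. Their mean was 2.85 on AKO RT 2, 1.61 on AKO Cold 2 and 3.43 on AKO Cold 3, against −2.47 on AKO Cold 1. The part of muscle in these differences was not tested. Both temperature comparisons have separate arrays. Each shares its RT arrays with the genotype comparison at RT and its cold arrays with that in the cold. All comparisons also share the variance of each gene, pooled over the groups.

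Whether the genotype difference itself changed with temperature was tested as an interaction. It was above 0 for 28 of the 33 genes (51.6% of all genes), with a median of 0.28 against 0.01 over all genes. In limma 0 passed, with 0 at an unadjusted p below 0.05 (0.018% and 4.78% of all genes), and the smallest adjusted p was 0.978. Without flox RT 3 the median was 0.71 and 19 genes had an unadjusted p below 0.05 (5.73% of all genes), with 0 passing. Here too flox RT is only the high arrays flox RT 1 and 2. The median was −0.32 without flox RT 1 and 2 together.

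The other genes of the pathway were counted in the same way, and none of those listed passed the limma threshold in any of the 5 comparisons. Of 40 further interferon-stimulated genes, 38 were lower in AKO at RT, with a median of −0.20, of which 3 had an unadjusted p below 0.05 (3.09% of all genes in that direction). In the cold 39 of the 40 were lower in flox (median −0.40, 17 at an unadjusted p below 0.05) and 39 in AKO (median −0.28, 5 at an unadjusted p below 0.05). Of all genes, 4.45% in flox and 4.43% in AKO were lower in the cold at that p. Their mean was 0.29, 0.67 and −0.06 on flox RT 1, 2 and 3. Oas1g, another oligoadenylate synthetase, measured 6.22, 6.39 and 4.09 in flox RT and 3.85, 2.75 and 3.57 in flox Cold (difference −2.18, adjusted p = 0.220). All 14 measured genes of nucleic acid sensing upstream of the interferons, such as Mavs and Tlr7, were lower in AKO at RT, with a median of −0.18 and 2 at an unadjusted p below 0.05 (3.09% of all genes in that direction).

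Of 21 interferons, receptors and signalling genes, 17 were lower in AKO at RT, with a median of −0.09. Ifnb1, the gene of interferon beta, was dim on all arrays, between 0.984 and 1.28 on those of flox. Ifna4, an interferon alpha gene with near-identical copies, measured 6.18, 6.37 and 5.78 in flox RT and 4.12, 5.04 and 3.35 in flox Cold (difference −1.94, adjusted p = 0.121). All 3 flox RT arrays, flox RT 3 included, lay above the flox Cold arrays for Ifna4. In AKO, Ifna4 measured 4.86, 5.24 and 5.85 at RT and 5.16, 4.98 and 5.79 in the cold (difference −0.0094). Its difference between AKO and flox in the cold was 1.14 (limma adjusted p = 0.561), and its interaction was 1.93 (adjusted p = 0.978). Of 14 further genes of antigen presentation, 7 were higher and 7 lower in AKO at RT, and 14 were lower in the cold in AKO (median −0.17).

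Markers of other cells moved with some of these values. The mean of 10 macrophage markers was 0.36, 0.36 and −0.22 on flox RT 1, 2 and 3, with the same 2 arrays high, and 0.12, 0.15 and 0.32 in AKO RT. It was −0.20, −0.16 and −0.33 in flox Cold and 0.03, −0.14 and −0.28 in AKO Cold. In the cold 10 of 10 macrophage markers were lower in flox (median −0.39) and 10 of 10 in AKO (median −0.28), with 5 at an unadjusted p below 0.05 in each (4.45% and 4.43% of all genes in that direction) and 0 passing in limma. At RT 7 of the 10 were higher in AKO (median 0.08). The mean log2 signal of the 10 markers on an array ranged from 8.21 to 8.79 in flox RT and 8.55 to 8.75 in AKO RT. It ranged from 8.11 to 8.27 in flox Cold and 8.16 to 8.46 in AKO Cold. The part of macrophages in the interferon differences was not tested. T cell markers did not follow the order of the flox RT arrays, with −0.05, 0.36 and 0.21, nor did B cell markers, with −0.22, 0.20 and 0.36. The mean of 7 neutrophil markers did, with 0.14, 0.40 and −0.42 on flox RT 1, 2 and 3, at dim levels of 2.83 to 3.64 in that group. It was −0.13, −0.032 and −0.28 in AKO RT, −0.18, −0.45 and 0.12 in flox Cold and 0.30, 0.19 and 0.34 in AKO Cold. In the cold 7 of 7 neutrophil markers were higher in AKO, with 2 at an unadjusted p below 0.05 (3.23% of all genes in that direction) and 0 passing in limma, and their part in the interferon values was not tested. Mammary epithelial markers were 0.61, 0.20 and −0.22 on flox RT 1, 2 and 3, and skeletal muscle markers −1.04, −2.00 and 1.11, and their part was not tested either.

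**Figure D4:**
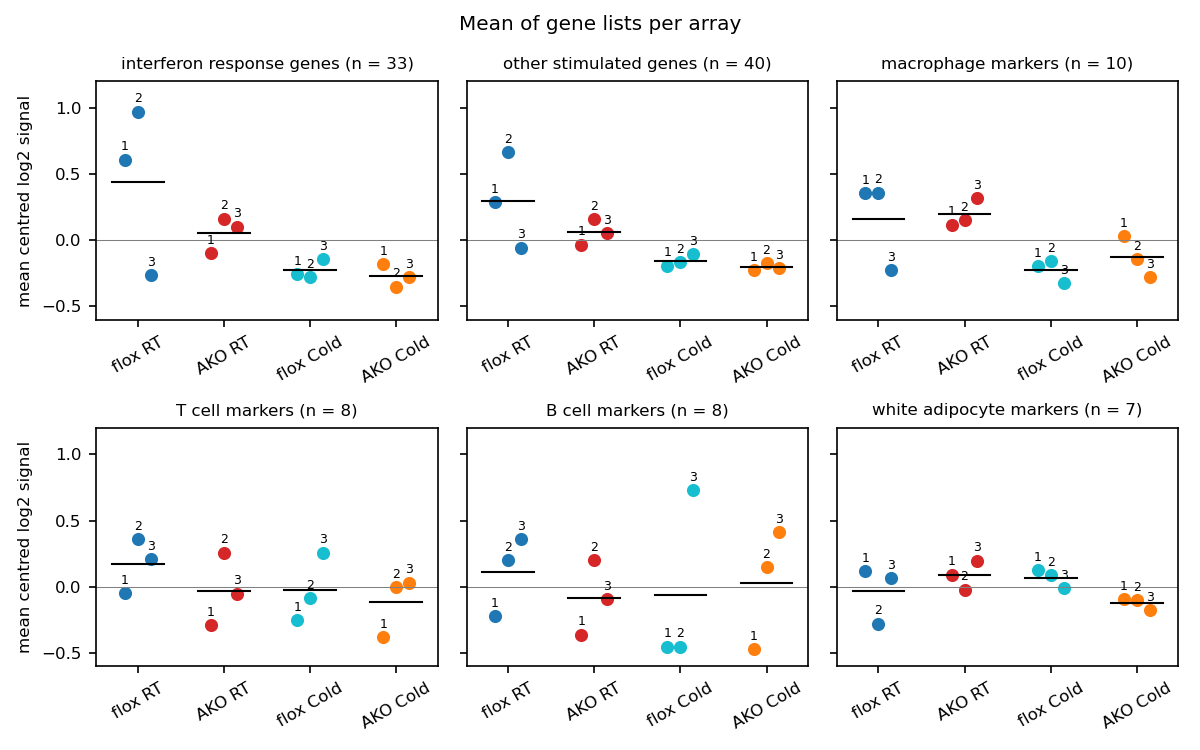
Mean of the centred log2 signals of 6 gene lists on each array, numbered by replicate, with the group mean as a bar. Interferon response genes are 0.61 and 0.97 on flox RT 1 and 2 and −0.26 on flox RT 3, and macrophage markers are 0.36, 0.36 and −0.22 on these arrays.

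Over the 12 arrays a member correlated with the mean of the other members at a median r of 0.92, with 19 of 33 above 0.9 and 26 above 0.8. Without flox RT 1 and 2 the median r was 0.69. The genes that followed least were Ifi27 (−0.69), Ifit3 (0.16) and Cxcl9 (0.40). The genes outside the set with profiles most like its mean were Fcgr1 (r = 0.974), Rnf213 (0.973), Ccl2 (0.961), Eif2ak2 (0.961), Slfn4 (0.958), Ccl7 (0.957), Tor3a (0.956), Cmpk2 (0.955), Clec4a1 (0.949) and Fcer1g (0.949). Fcgr1 is an Fc receptor of macrophages and monocytes, Ccl2 and Ccl7 are chemokines that attract monocytes, and Eif2ak2 is the kinase PKR. Over the 10 arrays without flox RT 1 and 2, r was 0.924 for Rnf213, 0.809 for Fcgr1, 0.710 for Ccl2 and 0.656 for Slfn4. These correlations describe 12 arrays that share 2 high arrays, and the genes were picked for them.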

How the data were processed

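Total RNA of iWAT (Trizol, 400 ng per array, WT Plus kit) was hybridised by the authors to single-colour Affymetrix arrays. The authors deposited log2 signals from RMA (R 3.1.1), a method that adjusts for background, equalises the distributions of the arrays and combines the probes of each transcript cluster. Of 41345 clusters 23521 had exactly 1 gene symbol in the probe table, 1820 had several and 16004 were not named. Where a gene had several clusters the brightest on average was kept, which left 22180 genes. Array medians were 3.57 to 3.71, and the number of arrays limits the precision. RMA values carry no detection call.

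The test was limma 3.58.1 (R 4.3.3, two-sided), fitted with 1 mean per group on the 12 arrays and moderated with eBayes, with Benjamini-Hochberg adjustment over all genes within each of 5 comparisons and a threshold of 0.05. Limma p-values reflect the spread within groups of 3 arrays, pooled per gene over the 4 groups (8 residual degrees of freedom). The wide flox RT spread of most interferon response genes therefore also enters the comparisons without flox RT arrays. No array test is named in the study's methods, and the two-sided Student test given there for other data was run as an alternative (the methods' t-test). The procedure was tested on simulated data in which genes varied independently and each had the same spread in all groups. That setting lacks the wide flox RT spread and the shared movement of these genes, so it does not test their calls. Members and lists were chosen with earlier results of these data known. Values on all arrays are given for genes that passed, the 8 most and 3 least variable genes and the transcription factors, and other members by range or difference, except that Zbp1, Dhx58 and Ifih1 are shown at RT because they are the only sensors. Promoters are from RefSeq. Alternatives were other normalizations, a filter on dim genes, averaged clusters, a trended and robust eBayes, array weights, 6 arrays alone, a replicate block and left-out arrays.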

Additional observations from a re-analysis of the deposited data

How the results depend on the processing

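Called members at RT (1 of 33, Ifi27, in AKO against flox) were 0 with the 6 arrays alone, with the methods' t-test, without flox RT 1 and 2 together and without the 3 muscle-rich arrays. Leaving out 1 array gave 0 to 9 there and 0 to 16 for cold against RT in flox. The member median without 1 array ranged from −0.65 to −0.092 for AKO minus flox at RT, −0.94 to −0.38 for cold minus RT in flox and 0.057 to 0.71 for the interaction, and without flox RT 1 and 2 together it was 0.34, 0.020 and −0.32. The flox RT 1 and 2 exclusion and the muscle-rich exclusion were chosen from earlier results of these data. The replicate numbers do not pair the arrays by any label, and arrays of the same number did not deviate together (r −0.237 to 0.283, 4 of 18 pairs above 0.1, and 5 of 12 arrays were most like their own number). With the number as a replicate block 0 members were called at RT, and Ifi27 had an adjusted p of 0.0752. Other normalizations, the filter on dim genes and averaged clusters left the medians between −0.40 and −0.29 at RT and between −0.73 and −0.65 in flox. For cold minus RT in AKO the member median was −0.40 to −0.29 without 1 array and −0.34 to −0.20 over other settings.

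Of the single-gene values, 85 changed sign under an alternative, 1584 kept direction and side of the threshold, 14 gained a call and 12 lost one. Without flox RT 1 and 2 together, AKO minus flox at RT became 0.47 for Cxcl10, 0.95 for Ifit1, 0.83 for Irf7, 0.22 for Irf9, 0.66 for Isg15, 0.76 for Mx1, 0.64 for Oas2, 0.10 for Oas3, 0.37 for Oasl1, 0.57 for Oasl2 and 0.16 for Stat2. Cold minus RT in flox became 0.35 for Cxcl10, 0.032 for Cxcl9, 0.29 for Ifit1, 0.39 for Irf7, 0.31 for Isg15, 0.024 for Mx1, 0.11 for Oasl1, 0.055 for Oasl2 and 0.053 for Psmb8. The interaction became −0.43 for Cxcl10, −1.04 for Ifit1, −0.032 for Irf1, −1.09 for Irf7, −0.22 for Irf9, −0.83 for Isg15, −0.60 for Mx1, −0.50 for Oas2, −0.20 for Oas3, −0.53 for Oasl1, −0.62 for Oasl2 and −0.18 for Stat2. By construction these fits rest on flox RT 3 alone. Without the 3 muscle-rich arrays, AKO minus flox in cold became 0.28 for Ifit1, 0.17 for Isg15, −0.16 for Oas2 and 0.072 for Oasl2, cold minus RT in AKO became 0.41 for Cxcl10 and 0.24 for Mx1, and the Psmb8 interaction became 0.088. In these fits AKO Cold is the single array AKO Cold 1, assumed to vary like the other groups. With array weights AKO minus flox in cold was 0.038 for Irf9 and 0.048 for Stat2, and the Psmb8 interaction was 0.071. With quantile normalization Cxcl9 was −0.040 at RT and the Psmb8 interaction 0.019. With median centring Cxcl9 was 0.037 for cold in flox and the Irf1 interaction −0.035. The cause was not tested.

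Leaving out 1 array, AKO minus flox in cold ranged from −0.22 to 0.43 for Cxcl10, −0.27 to 0.13 for Ifit1, −0.11 to 0.090 for Irf9, −0.092 to 0.40 for Mx1, −0.039 to 0.29 for Oas2, −0.24 to 0.080 for Oas3, −0.37 to 0.030 for Oasl1, −0.11 to 0.021 for Oasl2 and −0.12 to 0.11 for Stat2. At RT it ranged from −0.030 to 0.063 for Cxcl9, −0.22 to 0.026 for Irf1, −1.05 to 0.11 for Irf7 and −0.95 to 0.12 for Mx1. Cold minus RT ranged from −0.28 to 0.046 for Cxcl10 in AKO and −0.11 to 0.11 for Cxcl9 in flox. The interaction ranged from −0.13 to 0.12 for Irf1, −0.37 to 0.78 for Irf7 and −0.094 to 0.14 for Psmb8.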
